A study of Homo sapiens with 12 samples.

Results

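Collagen alpha chain genes were followed across 12 RNA-seq libraries made from HCT116 and LoVo cells, which are established lines of human colorectal cancer. The members were the protein-coding genes whose symbol reads COL, a number, A and a number, and there were 44 of them among the 62656 genes of the count table. The choice of members read only symbols. The family was taken up with earlier results of these data known, among them the fall of COL13A1 in LoVo, so the counts over the family below are descriptions.

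Each of 4 groups held 3 libraries: HCT116 controls, whose data columns are headed as vector, HCT116 cells with overexpression (OE) of the long non-coding RNA SLERT, LoVo controls, whose columns are headed as a control hairpin, and LoVo cells labelled as SLERT knockdown (KD). The libraries held 14.46 to 17.23 M counts each. The labels name no construct, clone or culture, so a p-value here speaks only of the spread among these libraries, and that spread may be technical. Of the locus that makes SLERT, SNORA5C had 16 counts in the HCT116 controls and 1926 in the OE libraries, but 37 in the LoVo controls and 37 in the libraries labelled KD, with an edgeR adjusted p of 0.98 in LoVo. The LoVo label was therefore not borne out by this readout, and every LoVo change below is a difference between libraries labelled KD and control.

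Collagens are triple helices of 3 alpha chains, secreted into the matrix or anchored in the cell membrane. Fibril-forming types I, II, III, V and XI build cables, type IV builds the sheet of basement membranes, type VI forms beaded filaments, type VII anchors epithelium to the stroma below, and FACIT collagens decorate fibrils. In the gut wall most fibrillar collagen is made by fibroblasts, while epithelial cells make type XVII, a hemidesmosome protein, and part of the basement membrane.

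The 2 lines used different collagens. Summed over the family, the level per length was 129 ± 7.32 FPKM (counts scaled to gene length and library total, SD, n = 3) in the HCT116 controls and 51.3 ± 2.07 FPKM in the LoVo controls. In HCT116 controls 14 members reached a mean of 1 FPKM, and in LoVo controls 6 did. No counts at all were found for 5 members in the HCT116 controls and for 9 in the LoVo controls. The plot of FPKM by library shows these levels for the 28 members that passed the filter on low counts in at least 1 line.

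**Figure D1:**
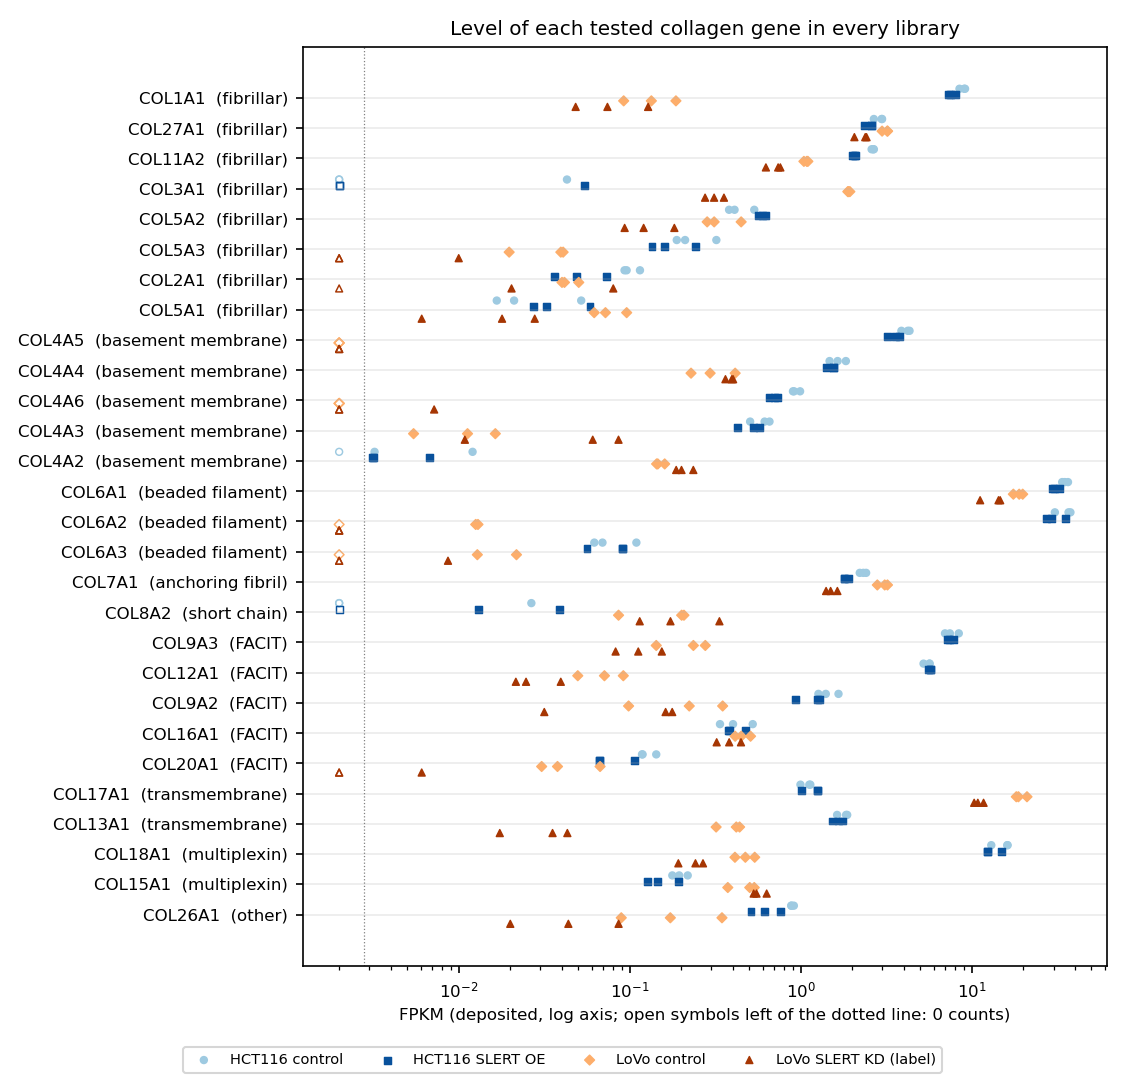
Deposited FPKM values of 28 collagen genes in each of the 12 libraries, on a log axis, grouped by structural class, with open symbols for libraries with 0 counts. COL6A1 and COL6A2 lie together near 35.0 FPKM in the HCT116 controls, while COL6A2 is at or near 0 in every LoVo library.

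Type VI chains led in HCT116. COL6A1, whose chain is an obligatory part of the beaded filament, measured 36.5, 34.9 and 33.7 FPKM in the 3 HCT116 controls and 18.9, 17.5 and 19.8 FPKM in the LoVo controls. COL6A2, the partner chain encoded 93046 bases further along chromosome 21, measured 36.7, 37.7 and 30.6 FPKM in the HCT116 controls. The ratio of COL6A1 to COL6A2 lay between 0.919 and 1.10 in all 6 HCT116 libraries. In LoVo the pair came apart: COL6A2 had 2 counts in the 3 LoVo controls together and 0 with the KD label, whereas the HCT116 controls held 9416. The HCT116 controls exceeded the LoVo controls 4150-fold in COL6A2 counts scaled to depth, with a counting interval of 1150 to 34200. The third classical chain, COL6A3, was low in both lines at 0.0802 and 0.0115 FPKM in the HCT116 and LoVo controls.

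Type I showed a similar imbalance in HCT116. COL1A1, the major chain of type I collagen, measured 9.02, 8.46 and 9.12 FPKM in the HCT116 controls. Its usual partner COL1A2 had 1 count over these 3 libraries and 0 in the other 3 groups. COL1A1 itself was 68.7-fold lower in the LoVo controls, at 0.137 FPKM.

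The type IV genes sit in head-to-head pairs. As background, each pair is read in opposite directions from a shared control region, and the chains of a pair can join the same network. By RefSeq start sites, COL4A1 and COL4A2 on chromosome 13 start 126 bases apart, COL4A3 and COL4A4 on chromosome 2 start 418 bases apart, and COL4A5 and COL4A6 on chromosome X start 379 bases apart. The 250 bases before the start of COL4A2 (chr13:110307034-110307283, plus strand), COL4A3 (chr2:227164374-227164623, plus strand) and COL4A5 (chrX:108439588-108439837, plus strand) are shown from RefSeq, GRCh38.p14, because each runs through the space between both genes of a pair. Capitals mark GC boxes, the letters GGGCGG on either strand.
COL4A2: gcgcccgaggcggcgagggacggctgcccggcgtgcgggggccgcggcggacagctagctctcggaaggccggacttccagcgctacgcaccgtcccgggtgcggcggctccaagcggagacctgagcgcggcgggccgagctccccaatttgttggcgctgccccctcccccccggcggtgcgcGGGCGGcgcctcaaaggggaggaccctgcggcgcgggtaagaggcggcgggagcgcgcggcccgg
COL4A3: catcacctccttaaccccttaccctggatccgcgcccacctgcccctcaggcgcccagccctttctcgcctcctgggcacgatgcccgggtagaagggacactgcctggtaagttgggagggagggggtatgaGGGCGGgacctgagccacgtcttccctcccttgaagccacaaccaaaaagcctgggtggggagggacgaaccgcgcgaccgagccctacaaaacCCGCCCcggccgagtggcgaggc
COL4A5: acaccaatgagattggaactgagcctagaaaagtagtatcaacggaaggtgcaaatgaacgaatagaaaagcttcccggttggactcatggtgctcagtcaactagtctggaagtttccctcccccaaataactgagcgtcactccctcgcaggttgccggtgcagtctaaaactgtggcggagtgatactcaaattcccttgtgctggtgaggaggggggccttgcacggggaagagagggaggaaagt
These windows hold 1, 2 and 0 GC boxes. Only parts of the intervening space fall in 250 bases where the start sites lie further apart than that.

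The expressed pair differed between the lines. In HCT116, COL4A5 measured 3.87, 4.22 and 4.32 FPKM in the controls and COL4A6 0.913, 0.900 and 0.990 FPKM. LoVo reads held almost none of either gene: COL4A5 had 0 counts in all 6 LoVo libraries and COL4A6 had 1 count in all. With the LoVo controls set to a floor of 3 counts in all, COL4A5 was at least 724.6-fold higher and COL4A6 at least 128.0-fold higher in the HCT116 controls. COL4A4 and COL4A3 followed the same order, with 1.65 and 0.592 FPKM in the HCT116 controls and 0.312 and 0.0110 FPKM in the LoVo controls. COL4A2 went the other way, with 5 counts in the HCT116 controls and 128 in the LoVo controls. COL4A1, which usually accompanies COL4A2, stayed at 25 and 18 counts.

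**Figure D2:**
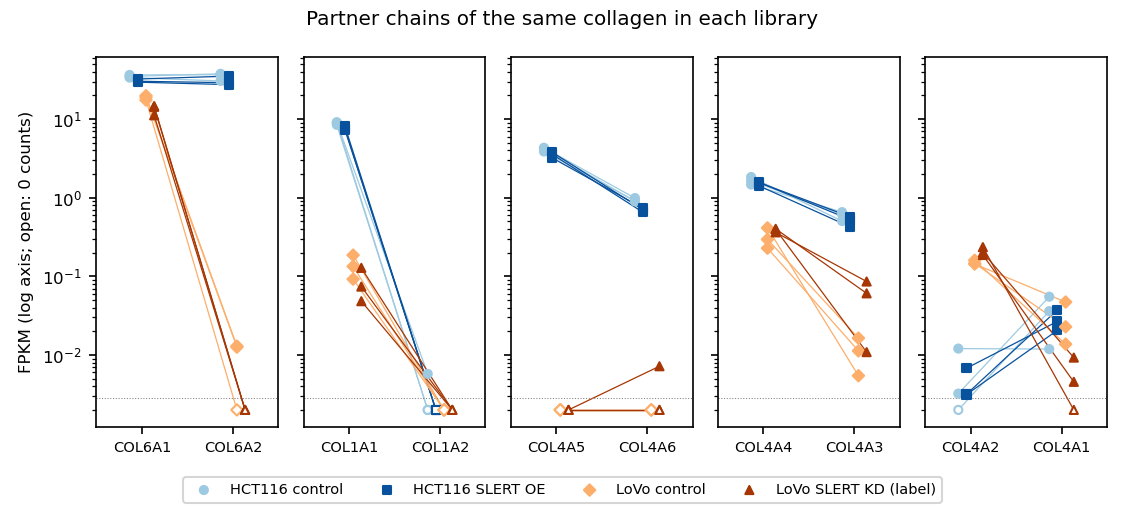
FPKM of 5 pairs of partner chains in each library, on a log axis, with a line joining the genes of a pair within a library and open symbols for 0 counts. The COL6A1 and COL6A2 values lie level in HCT116 and fall apart in LoVo, and COL4A5 and COL4A6 are detected in HCT116 and nearly absent from LoVo reads.

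LoVo in turn led in type XVII and type III. COL17A1, the transmembrane collagen of hemidesmosomes, measured 21.0, 18.7 and 18.2 FPKM in the LoVo controls and 1.12, 1.14 and 0.995 FPKM in the HCT116 controls. COL3A1, a fibrillar chain that forms homotrimers, measured 1.93, 1.90 and 1.88 FPKM in the LoVo controls, while 2 of the 3 HCT116 controls had 0 counts and the other 5. COL17A1 and COL6A1 together made up 74.2% of the summed collagen FPKM of the LoVo controls. In the HCT116 controls COL6A1 and COL6A2 made up 54.2%, and COL18A1, the source of endostatin, a further 11.7%.

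Tested in 1 edgeR fit over all 12 libraries, 24 of 27 tested members differed between the control groups of the 2 lines, where 76.6% of all 18199 genes tested differed. The lower value was in LoVo for 17 members (38.7% of all genes) and in HCT116 for 7 (37.9% of all genes). Those higher in LoVo were COL3A1, COL4A2, COL17A1, COL8A2, COL5A1, COL15A1 and COL7A1. Of these, COL3A1, COL4A2, COL8A2 and COL5A1 did not pass the filter within HCT116 and entered this fit through LoVo, where they were higher. COL6A2, COL6A3, COL4A3, COL4A5, COL4A6, COL5A3, COL20A1 and COL26A1 did not pass it within LoVo and entered through HCT116. For both sets of genes the filter favoured a call, so their calls and the count of 24 are given as descriptions. The log2 differences of COL3A1, COL4A2 and COL17A1 were 6.81 (SE 0.421, adjusted p = 6.04e-15), 4.65 (SE 0.473, adjusted p = 4.45e-10) and 4.05 (SE 0.0927, adjusted p = 1.36e-25). Those of COL3A1 and COL4A2 rest on 5 counts each in the HCT116 controls. COL12A1, a FACIT collagen, was 83.3-fold lower in LoVo controls, COL9A3, another, 37.0-fold, and COL18A1 34.1-fold. COL5A2, COL16A1 and COL27A1 did not pass the test, with 95% intervals of the log2 difference of -0.93 to 0.05, -0.40 to 0.43 and -0.14 to 0.18. The call of COL5A1 was lost with DESeq2, with no filter, on log2(FPKM + 1), and without HCT116 control library 2 or 3, LoVo control library 1 or 2, or KD library 3.

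Within LoVo, collagen RNA was lower in the libraries labelled SLERT KD. Of 19 tested members 11 were called, all of them lower, against 13.7% of all 16253 genes tested called lower and 26.3% called in either direction. The filter on low counts was passed in all 6 libraries by 12 of the 19. Another 5 passed it in all controls but not in all KD libraries, and 0 the other way. Among these 5 were the called COL13A1, COL5A1 and COL12A1, for which the filter favoured a fall. The median log2 fold change of the 19 was -0.79 and that of all genes tested 0.00. Summed collagen FPKM was 53.6, 49.5 and 50.7 in the controls and 33.4, 28.7 and 33.8 in the KD libraries. These groups did not overlap. In such bulk libraries, fewer cells making a collagen and less collagen RNA per cell cannot be told apart. Collagen transcripts are long, and among genes at least as long as the median tested member 14.0% were called lower and 18.9% higher.

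**Figure D3:**
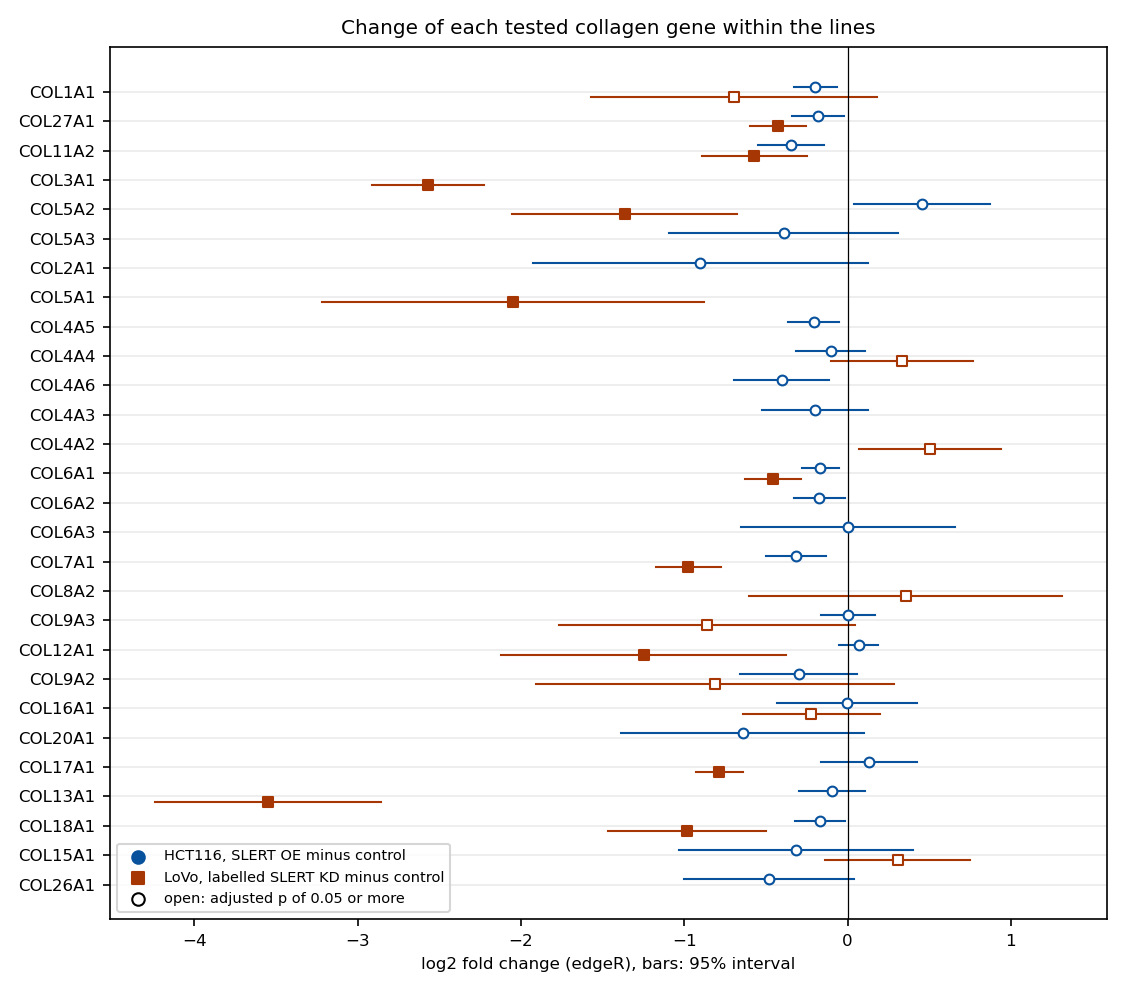
Log2 fold changes with 95% intervals from edgeR for each tested collagen gene, circles for HCT116 OE minus control and squares for LoVo KD label minus control, filled where the adjusted p is under 0.05. The 11 filled squares all lie left of 0, no circle is filled, and the open squares of COL4A2 and COL4A4 lie right of 0.

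COL13A1, a transmembrane collagen of cell junctions, had the largest fall among the tested members. It measured 4.77, 3.64 and 5.04 CPM (counts scaled to library size, TMM-normalised) in the LoVo controls and 0.414, 0.503 and 0.202 CPM in the KD libraries. The 2 groups lay far apart, the reads behind them being 200 counts in the controls together and 17 in the KD libraries. Its log2 fold change was -3.55 (SE 0.335), an 11.7-fold fall, with an edgeR adjusted p of 3.73e-08. COL17A1, at 145, 129 and 127 CPM in the controls, was 77.1, 73.0 and 82.6 CPM in the KD libraries. Every KD library lay below every control for this gene, which had the highest mean collagen FPKM of the LoVo controls (19.3 against 18.7 for COL6A1) and a lower mean than COL6A1 in the KD libraries (10.9 against 13.4). It had a log2 fold change of -0.79 (SE 0.0699, adjusted p = 1.51e-08).

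All 6 tested fibrillar chains had negative log2 fold changes, and 5 were called lower (83.3%, against 13.7% of all genes tested). COL5A1, 1 of these 5, passed the filter through its controls alone. COL3A1 measured 12.9, 12.7 and 12.7 CPM in the controls and 2.14, 1.89 and 2.42 CPM in the KD libraries. The controls were nearly equal and the KD libraries 5.93-fold lower (log2 fold change -2.57, SE 0.166, adjusted p = 7.08e-11). COL5A2, whose chain helps set fibril diameter and whose gene lies tail to tail with COL3A1 19149 bases away on chromosome 2, measured 2.25, 3.24 and 2.07 CPM in the controls and 0.898, 0.691 and 1.35 CPM in the KD libraries. Its groups did not overlap and its log2 fold change was -1.37 (SE 0.333, adjusted p = 0.0039). COL5A1, the partner of COL5A2 in type V collagen, measured 0.794, 1.06 and 0.690 CPM against 0.0691, 0.314 and 0.202 CPM, from 38 and 9 counts in all (log2 fold change -2.05, SE 0.566, adjusted p = 0.00941). This low gene lost its call without control library 2 and in both fits on FPKM (adjusted p up to 0.219 over its alternatives).

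The remaining fibrillar falls were smaller. COL11A2, a type XI chain, measured 7.88, 8.0 and 7.66 CPM in the controls and 5.52, 5.66 and 4.65 CPM in the KD libraries (log2 fold change -0.57, adjusted p = 0.0086). COL27A1, a fibrillar chain known from cartilage, measured 44.5, 44.3 and 41.7 CPM and then 34.5, 29.2 and 33.7 CPM (log2 fold change -0.42, adjusted p = 0.000624). Neither gene's groups overlapped. COL1A1 was the fibrillar member not called, at 1.65, 1.19 and 0.828 CPM in the controls and 1.17, 0.440 and 0.673 CPM in the KD libraries. The call of COL11A2 was lost without KD library 3, where the adjusted p was 0.0526.

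COL7A1, which forms anchoring fibrils under the basement membrane, measured 35.3, 30.8 and 34.4 CPM in the controls and 16.9, 15.8 and 18.4 CPM in the KD libraries. The KD libraries were 1.97-fold lower without overlap (log2 fold change -0.97, SE 0.0960, adjusted p = 7.21e-08). COL6A1 measured 103, 95.7 and 109 CPM in the controls and 82.5, 62.6 and 80.0 CPM in the KD libraries. Its fall was 1.37-fold, again without overlap (log2 fold change -0.46, SE 0.0840, adjusted p = 0.00032).

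COL18A1, a basement membrane proteoglycan, measured 3.44, 4.5 and 4.0 CPM in the LoVo controls and 1.66, 2.07 and 2.29 CPM in the KD libraries. Its log2 fold change was -0.98 (SE 0.234, adjusted p = 0.00319). By the annotation 1401 exonic bases of COL18A1, 16.4% of its exonic length, are shared with SLC19A1 on the opposite strand. SLC19A1 had 3537 counts in the 3 LoVo controls and 3048 with the KD label, and COL18A1 had 178 and 91. No source used here says whether the counting used strand, and without strand the reads of these genes in LoVo cannot be told apart.

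COL12A1 was the FACIT member called, at 1.32, 0.926 and 1.72 CPM in the controls and 0.414, 0.754 and 0.471 CPM in the KD libraries. The groups did not overlap, on 59 and 25 counts (log2 fold change -1.25, SE 0.423, adjusted p = 0.0313). Its call was lost without control library 1, control library 3, KD library 1 or KD library 3, and in both fits on FPKM. COL9A3 and COL9A2, chains of type IX collagen, had log2 fold changes of -0.86 and -0.81 and did not pass the test. COL16A1 measured 4.19 ± 0.465 CPM in the controls and 3.59 ± 0.579 CPM in the KD libraries (SD, n = 3), with overlapping groups.

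**Figure D4:**
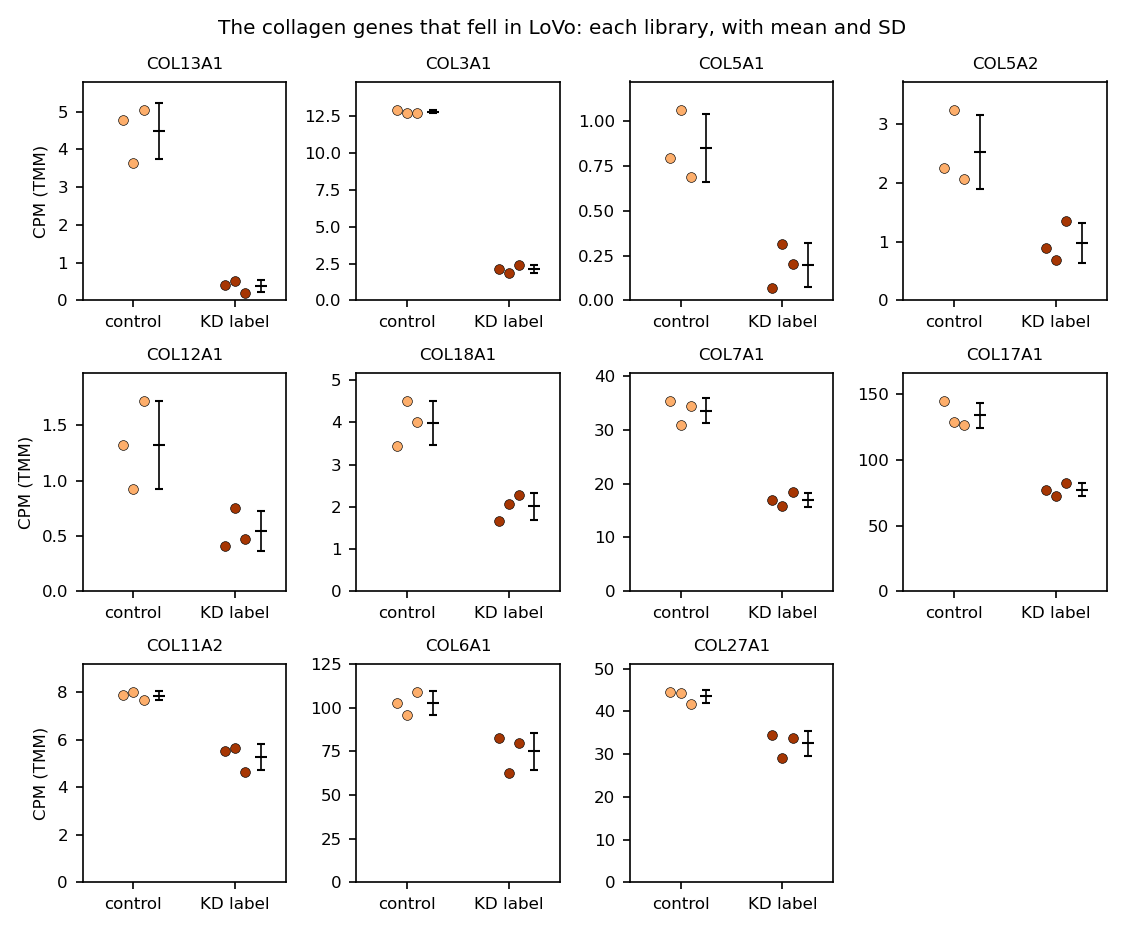
TMM-normalised CPM of the 11 collagen genes called in LoVo, one point per library with the mean and SD (n = 3) beside it, each panel starting at 0. The genes were picked by their calls in these same libraries, so the gap between the groups is a description. In all 11 panels the 3 libraries labelled KD lie below the 3 controls, by the largest folds in COL13A1 and COL3A1.

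From RefSeq, the windows of COL13A1 (chr10:69801656-69801905, plus strand), COL5A1 (chr9:134641553-134641802, plus strand) and COL12A1 (chr6:75206054-75206303, minus strand) are shown, 250 bases before the start in GRCh38.p14, because these genes were called with log2 fold changes below -1, as were COL3A1 and COL5A2, for which no window was matched. Capitals mark GC boxes (GGGCGG), AP-1 sites (TGANTCA) and TATA boxes (TATAAA), searched on both strands.
COL13A1: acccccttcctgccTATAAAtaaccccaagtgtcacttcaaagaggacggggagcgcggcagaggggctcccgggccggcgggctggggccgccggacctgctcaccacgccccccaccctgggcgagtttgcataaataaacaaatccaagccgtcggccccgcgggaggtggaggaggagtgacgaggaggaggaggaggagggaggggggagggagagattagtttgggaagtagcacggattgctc
COL5A1: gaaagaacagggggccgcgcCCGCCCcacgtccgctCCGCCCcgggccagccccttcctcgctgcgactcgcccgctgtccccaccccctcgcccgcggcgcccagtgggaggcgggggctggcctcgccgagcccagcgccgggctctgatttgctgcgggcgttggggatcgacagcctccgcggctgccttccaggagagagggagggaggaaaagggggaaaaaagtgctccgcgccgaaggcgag
COL12A1: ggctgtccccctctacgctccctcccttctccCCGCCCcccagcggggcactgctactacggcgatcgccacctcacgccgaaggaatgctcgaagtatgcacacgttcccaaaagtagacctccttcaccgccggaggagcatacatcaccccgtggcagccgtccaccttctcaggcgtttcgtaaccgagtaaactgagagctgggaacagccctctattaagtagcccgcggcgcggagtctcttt
COL13A1 holds a TATA box toward the far end of the window and no GC box, COL5A1 holds 2 GC boxes and COL12A1 holds 1. RefSeq windows were matched for 32 of the 44 members. A GC box was in 18 of these 32 windows (56.2%), against 42.6% of all 35116 windows of the same length, a TATA box in 15.6% against 10.7%, and an AP-1 site in 0 of 32 against 6.57%. The median GC content was 65.2% in the collagen windows and 58.0% in all windows.

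Of the type IV genes 2 were tested in LoVo, and neither passed. COL4A2 measured 3.04, 2.78 and 2.76 CPM in the controls and 3.94, 4.59 and 3.64 CPM in the KD libraries. All KD values were above all controls, with a log2 fold change of 0.50 (SE 0.210) and an adjusted p of 0.0808, over the threshold of 0.05. COL4A4 measured 3.65 ± 1.09 CPM in the controls and 4.63 ± 0.259 CPM in the KD libraries, with overlap. COL15A1, a relative of COL18A1, gave 3.51, 3.31 and 2.48 CPM and then 3.59, 3.71 and 4.24 CPM, and COL8A2, a short-chain network collagen, a log2 fold change of 0.36. Neither was called.

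Members too low for the filter in LoVo are given as counts. COL20A1, a FACIT collagen, had 5, 11 and 6 counts in the controls and 0, 0 and 1 in the KD libraries. Scaled to depth the ratio was 22.8, and counting error alone gives it an interval of 3.68 to 939. COL26A1 had 28 and 7 counts over the groups, COL23A1 19 and 4, COL4A1 18 and 3, COL6A3 11 and 3, and COL5A3 10 and 1. COL4A3, a type IV chain, was the reverse, with 3, 1 and 2 counts in the controls and 11, 17 and 2 in the KD libraries, so that 1 KD library lay within the control range. COL21A1, a FACIT collagen, had 3, 2 and 2 counts in the controls and 6, 4 and 6 in the KD libraries, all above all controls, with a depth-scaled ratio of 2.21 and a counting interval of 0.860 to 6.35. In the fit over all 12 libraries, COL20A1 (edgeR adjusted p = 0.00163), COL26A1 (0.0198) and COL5A3 (0.0478) were called lower and COL4A3 (0.0112) higher in LoVo. These 4 did not pass the filter within LoVo and entered that fit through the HCT116 libraries, where they were higher, so the LoVo calls are given as a description of few counts. Of the 19 members tested within LoVo, 12 were over the filter level in all 6 libraries. COL13A1 and COL5A1 were over it in the 3 controls and in 0 KD libraries, and COL12A1, COL9A3 and COL1A1 in the 3 controls and 1 KD library, so their controls alone kept these 5.

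In HCT116, no collagen gene passed the test with SLERT overexpression. Of the 24 tested members 0 were called, where 0.914% of all 15980 genes tested were (0.407% lower and 0.507% higher). DESeq2 also called 0, but gave an adjusted p for 9 of the 24, COL11A2 not among them. An unadjusted p under 0.05 was reached by 10 members, 9 of them lower, against 14.4% of all genes tested (6.82% lower). The log2 fold change was negative for 19 members and positive for 5, with a median of -0.19 against -0.00 over all genes tested. Summed collagen FPKM was 133, 134 and 121 in the controls and 124, 109 and 110 in the OE libraries, which overlap.

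The smallest adjusted p-values belonged to COL11A2 and COL7A1. COL11A2 measured 19.0, 19.3 and 19.7 CPM in the HCT116 controls and 15.4, 14.8 and 15.3 CPM in the OE libraries, a log2 fold change of -0.35 (SE 0.0984, adjusted p = 0.0831). COL7A1 measured 24.5, 26.5 and 25.8 CPM and then 21.4, 20.0 and 20.4 CPM, a log2 fold change of -0.31 (SE 0.0890, adjusted p = 0.0838). In both genes every OE library lay below every control, yet neither passed the threshold.

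Abundant chains differed by little. COL6A1 measured 201, 191 and 186 CPM in the HCT116 controls and 180, 165 and 170 CPM with OE (log2 fold change -0.17, 95% interval -0.28 to -0.05, adjusted p = 0.135). COL6A2 gave 195, 199 and 163 CPM and then 189, 148 and 157 CPM, with overlap. COL1A1 was at 80.9, 75.4 and 82.0 CPM and then 73.0, 67.9 and 66.9 CPM, without overlap (adjusted p = 0.133). COL18A1 was at 136, 135 and 110 CPM and then 127, 106 and 106 CPM, with overlap.

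COL4A5 measured 45.8, 49.5 and 51.2 CPM in the controls and 45.3, 42.7 and 38.7 CPM with OE, and its partner COL4A6 8.44, 8.26 and 9.18 CPM and then 6.57, 6.09 and 6.90 CPM. The groups stood apart in both genes, and the adjusted p-values were 0.187 and 0.162. COL13A1, the gene with the largest fall in LoVo among the tested members, was at 21.4, 20.9 and 18.7 CPM in the HCT116 controls and 20.2, 19.2 and 17.8 CPM with OE, with overlap. Its log2 fold change in HCT116 had a 95% interval of -0.29 to 0.11, which covers only the spread among these libraries. COL17A1 gave 7.80, 7.85 and 6.94 CPM and then 8.78, 7.13 and 8.89 CPM, with overlap. COL26A1, an EMI domain collagen, gave 2.72, 2.79 and 2.73 CPM and then 1.60, 2.38 and 1.92 CPM, all OE values below all controls (adjusted p = 0.393).

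COL12A1 and COL5A2 were on the positive side. COL12A1 measured 106, 106 and 98.2 CPM in the HCT116 controls and 106, 109 and 110 CPM with OE (95% interval -0.05 to 0.19). COL5A2 measured 2.77, 2.97 and 3.91 CPM and then 4.61, 4.14 and 4.44 CPM, all OE values above all controls (log2 fold change 0.45, adjusted p = 0.292). COL9A3, a chain of the FACIT type IX, stood at 7.43, 8.38 and 6.96 FPKM in the HCT116 controls and 7.82, 7.43 and 7.22 FPKM with OE. COL9A3 and COL6A3 both had a log2 fold change of 0.00, positive in sign, which turned negative with upper quartile factors. COL10A1, a hypertrophic cartilage chain below the filter, had 0 counts in the HCT116 controls and 3 in each OE library. With the controls set to a floor of 3 counts in all, OE was 3.13-fold higher. Without the filter COL10A1 was not called (edgeR adjusted p = 0.339).

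The changes in the 2 lines were compared in the fit over all 12 libraries, as OE minus control in HCT116 less control minus KD label in LoVo. The labels give more SLERT to the first group of each pair, which the locus counts bear out in HCT116 and not in LoVo. This difference was called for 12 of 27 tested members, against 14.6% of all genes tested (7.61% negative and 6.94% positive). It was negative for 11, that is, OE minus control in HCT116 lay below control minus KD label in LoVo. Of the 12, COL20A1, COL5A3, COL26A1 and COL4A3 did not pass the filter within LoVo. They entered this fit through the HCT116 libraries, where they were higher, so their calls are given as a description of few LoVo counts. COL13A1 had a log2 difference of -3.64 (SE 0.308, adjusted p = 1.72e-09) and COL7A1 of -1.29 (SE 0.128, adjusted p = 4.27e-08). COL4A3 was the positive one at 2.03 (SE 0.684, adjusted p = 0.0438), with its call and that of COL5A3 each lost in 9 of the 12 fits that left out 1 library. The call of COL26A1 was lost without LoVo control library 1 or KD library 2, and that of COL12A1 without LoVo control library 3. COL3A1 was not called for this difference (adjusted p = 0.236), its HCT116 counts being 5 and 6 over the groups, all in library 1 of each. Both FPKM fits called it, as did the fit without OE library 1.

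A further 67 genes that modify, fold, export, trim, cross-link, bind or degrade collagen were read beside the chains. In LoVo 44 of them were tested and 19 called (43.2%), 14 lower (31.8%) and 5 higher. Beside them, 26.3% of all genes tested were called, 13.7% lower and 12.6% higher. In HCT116 50 were tested and 1 was called (2.0%), beside 0.914% of all genes tested (0.407% lower and 0.507% higher). It was P4HA1, a prolyl 4-hydroxylase subunit, which fell from 62.0 ± 0.989 to 49.6 ± 2.34 CPM (SD, n = 3, log2 fold change -0.32, edgeR adjusted p = 0.0159). The call of P4HA1 was not made by the fits on FPKM, nor without control library 1 or 2 or OE library 1 or 3. Over all genes, each FPKM fit called 7, and these fits with a library left out called 37, 38, 175 and 37. With no library left out, edgeR called 146. The LoVo count of 19 was 11 without control library 3 and 12 without KD library 2. Leaving out 1 library or another ended the LoVo calls of BMP1, FKBP10, ITGB1, ITGA10, P3H4, PCOLCE2, PLOD3, P4HA1 and CREB3L1.

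Enzymes that hydroxylate and glycosylate collagen were called in 5 of 12 tested genes in LoVo (41.7%, against 26.3% of all genes tested), 4 of them lower (33.3% against 13.7%). P3H1, a prolyl 3-hydroxylase, fell from 40.5 ± 1.39 to 30.8 ± 2.43 CPM (adjusted p = 0.00128), PLOD1, a lysyl hydroxylase, from 116 ± 3.92 to 93.1 ± 11.2 CPM (adjusted p = 0.0034), and P3H4 by 0.33 on the log2 scale. PLOD3 fell also, and P4HA1 rose by 0.26 on the log2 scale. Of the 11 folding and export genes, SERPINH1, the collagen chaperone HSP47, measured 121, 120 and 120 CPM in the controls and 90.2, 82.8 and 86.0 CPM in the KD libraries (log2 fold change -0.48, adjusted p = 5.91e-06). FKBP10, a prolyl isomerase, fell by 1.38 on the log2 scale, while MIA2, part of the export machinery for large cargo, rose from 58.6 ± 0.361 to 87.3 ± 1.90 CPM (adjusted p = 7.19e-07). CREB3L1, a transcription factor of secretory cells, rose by 0.63 on the log2 scale.

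Of 4 tested propeptide processing genes in LoVo 3 were called, all lower (75.0%, against 13.7% of all genes tested). They were PCOLCE (log2 fold change -0.44), PCOLCE2 (-0.27) and the procollagen C-proteinase BMP1 (-0.24). The tested gene that was not called had a positive log2 fold change. TGM2, a transglutaminase that cross-links matrix proteins, fell from 43.7 ± 4.59 to 12.9 ± 1.89 CPM (log2 fold change -1.76, adjusted p = 3.06e-11). Of the lysyl oxidase family LOXL3 (-0.23) and LOXL2 (-0.20) were not called in LoVo. TNC, a matrix glycoprotein, and THBS1, which binds collagen and cells, had log2 fold changes of -1.25 and -0.94 and adjusted p-values of 3.7e-10 and 1.1e-11, and FN1 (-0.24) was not called.

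Among collagen receptors ITGA2 (0.32) and its partner ITGB1 (0.17) rose and ITGA10 (-0.73) fell. The collagenase MMP14 fell by 0.37 on the log2 scale, and MMP1 (-0.50) and CTSK (-0.34) were not called. In HCT116 the named genes that missed the threshold were LOXL2 (-0.24, adjusted p = 0.0643), PPIB (0.23), FKBP10 (-0.18), COLGALT1 (0.10), ADAMTS2 (-0.16), PCOLCE (-0.14), LOXL4 (-0.47), SPARC (-0.68), FN1 (-0.18), ITGA2 (-0.16), MRC2 (-0.18), MMP14 (-0.14) and CTSK (-0.23).

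**Figure D5:**
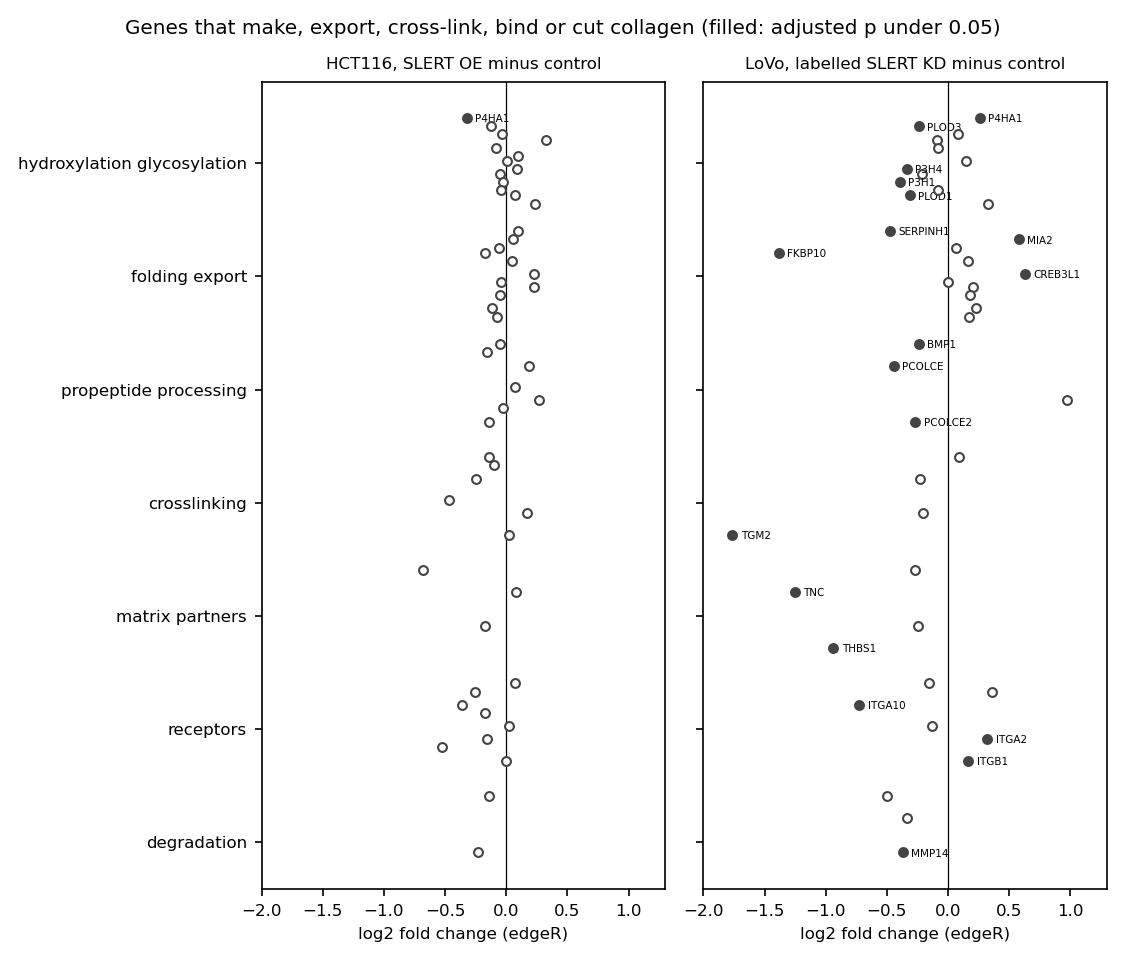
Log2 fold changes from edgeR of the tested genes of 7 collagen pathway lists, HCT116 on the left and LoVo on the right, filled and named where the adjusted p is under 0.05. In LoVo 14 filled points lie below 0 and 5 above, and in HCT116 the single filled point is P4HA1.

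Markers of other cell types were read beside these results. The 10 epithelial markers summed to 1150 to 1230 FPKM in HCT116, to 1810 to 1910 FPKM in the LoVo controls and to 1570 to 1680 FPKM in the KD libraries. The 10 fibroblast markers summed to 5.16 to 6.12 FPKM in the LoVo controls and 4.31 to 4.35 FPKM in the KD libraries. Both sums thus moved with the collagens in LoVo, without overlap. In HCT116 the fibroblast sum was 8.58 to 8.76 FPKM in the controls and 7.47 to 8.49 FPKM with OE, also without overlap. FBLN1 made up most of it there (6.05 and 5.75 FPKM). The epithelial markers did not move together. KRT8 (735 in the LoVo controls and 575 FPKM in the KD libraries), KRT18, KRT19, KRT20, CDX2 and VIL1 had lower means with the KD label. EPCAM (116 and 152 FPKM), CLDN4 (62.3 and 101 FPKM), CDH1 and CDX1 had higher means. The LoVo fibroblast sum was mostly TAGLN (3.12 and 1.83 FPKM) and ACTA2 (2.29 and 2.27 FPKM). POSTN had 0 counts in all groups, and LUM, DCN, FAP and PDGFRA had at most 4 counts in any LoVo group. What part other cells had in the collagen changes was not tested beyond these sums. The 8 endothelial markers summed to 1.17 to 1.34 FPKM in the LoVo controls and 0.838 to 1.10 FPKM in the KD libraries. The 8 leukocyte markers summed to 1.98 to 2.25 and 1.40 to 1.79 FPKM, so these low sums were lower with the KD label too. In HCT116 both of these sums overlapped between the controls and the OE libraries. The 10 retina markers, read because the extraction text names retinas where every other label names colorectal cancer cells, summed to 1.67 to 5.63 FPKM.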

How the data were processed

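Per the labels' protocols, 1 ug of total RNA went into an Illumina TruSeq RNA kit, a text that also speaks of retinas. The aligner was HISAT2 2.1.0 and the build GRCh38, per the submitters' processing notes. The sources used here do not give the counter, the annotation release or the strand setting. The deposited table of counts holds whole-number reads of 62656 genes. The deposited FPKM table covers 38828 genes, with values that equal counts over gene length and column total (largest relative deviation 4.09e-13). It lacks COL22A1, which had 0 counts in every library. Columns were assigned by heading. The vector columns were taken as the HCT116 controls, the least certain assignment.

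Symbols and coordinates came from GENCODE v29 and a gene name table, and promoter windows from RefSeq, GRCh38.p14. Each line was fitted with edgeR 4.0.16 in R 4.3.3 (quasi-likelihood F test, TMM factors, filterByExpr with a minimum count of 10, Benjamini-Hochberg adjustment over all genes tested, calls at an adjusted p under 0.05). A second fit over all 12 libraries gave the differences between lines. The code was tested on simulated data. CPM values are TMM-normalised, means are given with SD over 3 libraries, and counting intervals are exact at 95% and, like floors of 3 counts, cover counting error only. Over 12 pairs of libraries of a group, the chi-square of their counts per degree of freedom was 2.53 to 7.76, so each library was counted as 1 replicate.

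The members, gene lists and tests were chosen with earlier results of these data known. Values in every library were given for members called within a line, in that line. They were also given in at least 1 line for most of the 2 tested members per structural class with the highest mean FPKM. Of the latter, COL4A4 was given as a mean with SD and COL8A2 as a log2 fold change. Further members were added after their values were seen: COL4A2, COL4A3, COL4A6, COL10A1, COL20A1 and COL21A1. Of each pathway list, up to 3 genes with the smallest p in LoVo and up to 2 in HCT116 were named, with PLOD3, P4HA1 and CREB3L1 in LoVo added after their values were seen. Alternatives were DESeq2 1.42.0, RLE and upper quartile factors, no filter, limma 3.58.1 on log2(FPKM + 1) and log2(FPKM + 0.1), all 12 libraries in 1 fit, a replicate block and leaving out each library.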

Additional observations from a re-analysis of the deposited data

Results flagged for a closer look

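OE minus control in HCT116 and control minus KD label in LoVo differed for 12 collagen genes, by the edgeR test of that difference over all 12 libraries. The log2 differences, HCT116 less LoVo, were -4.69 for COL20A1 (adjusted p = 0.00202), -3.64 for COL13A1 (1.72e-09), -3.33 for COL5A3 (0.0485), -2.44 for COL26A1 (0.0162) and -1.29 for COL7A1 (4.27e-08). They were -1.18 for COL12A1 (0.0122), -1.15 for COL18A1 (0.00094), -0.92 for COL11A2 (0.000417), -0.66 for COL17A1 (0.00193), -0.62 for COL6A1 (0.000182) and -0.61 for COL27A1 (0.000554). COL4A3 had the opposite sign at 2.03 (0.0438). COL20A1, COL5A3, COL26A1 and COL4A3 had between 10 and 30 counts in the fuller LoVo group and entered this fit through the HCT116 libraries. The fitted values of COL20A1 and COL5A3 rest on 1 count each over the KD libraries.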

How the results depend on the processing

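In LoVo the count of called collagen genes was 11 with edgeR, 9 with DESeq2 (which gave no adjusted p for COL12A1 and COL5A1), 13 without a filter, 15 with all 12 libraries in 1 fit, 9 in both FPKM fits (without COL12A1 and COL5A1) and 10 to 11 with a library left out. COL17A1, COL7A1, COL6A1, COL3A1, COL18A1, COL27A1, COL13A1 and COL5A2 were called in all 14 alternatives. The count was 23 to 27 for the line difference in controls and 9 to 13 for the difference of changes. In HCT116 the collagen count was 0, and 0 to 1 with a library left out: COL18A1 was called without control library 3 and COL6A2 without OE library 1. With the replicate block it was 7 in HCT116 (COL11A2, COL18A1, COL1A1, COL4A5, COL6A1, COL6A2 and COL7A1, all lower), where that fit called 8.27% of all genes (3.16% lower), and 11 in LoVo, as without it, and COL5A1 was not called between the lines. Same-numbered libraries of a line correlated at 0.0337 to 0.0473 in HCT116 and 0.0164 to 0.0852 in LoVo in their deviations from group means, so they were taken to share only a number, although all 6 libraries of each line correlated best with their own number. The pathway count in HCT116 was 1, and 2 with DESeq2, 0 with log2(FPKM + 1) and with log2(FPKM + 0.1), 6 with the replicate block and 0 to 2 with a library left out. In LoVo the pathway count was 19, and 11 to 22 with a library left out, 11 without control library 3 and 12 without KD library 2. Signs of near-zero values turned. COL16A1 in HCT116 was 0.0007921 without a filter, 0.004294 with the replicate block and -0.15 to 0.18 with a library left out. COL9A3 in HCT116 was -0.009509 with upper quartile factors, -0.01397 with log2(FPKM + 1), -0.01527 with log2(FPKM + 0.1), -0.005703 with all 12 libraries and -0.0507 to 0.0754 with a library left out. COL6A3 in HCT116 was, in the same order, -0.00891, -0.001033, -0.003878, -0.00453 and -0.15 to 0.29. In LoVo, leaving out a library gave COL8A2 -0.16 to 0.65 and LOXL2 -0.53 to 0.11. The cause was not tested in any of these. At 14.46 to 17.23 M counts per library, 25 of the 44 members lay below the filter in LoVo and 20 in HCT116, and were not tested in the fits by line with the filter. Of these, COL20A1 and COL4A3 were called in LoVo without the filter, and COL4A3 with the filter when KD library 3 was left out.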
